A study of Mus musculus with 12 samples.

Results

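Reads of 4 miRNA precursors known from red blood cells were followed in small RNA libraries of the mouse retina: mir-451a, mir-144, mir-486a and mir-486b. In the deposited tables these are mmu-mir-451a, with 7897 reads over the 12 libraries, mmu-mir-144 with 225, mmu-mir-486a with 5405 and mmu-mir-486b with 5397, most of the last counted for both copies. They were taken by name, whatever their values, and are 4 of the 1532 precursors seen in the series, of which 997 are annotated and 535 were predicted by the submitters. Together they held 13795 of 62878432 counted reads (0.0219%), in 219 distinct read sequences, and each precursor had reads in all 12 libraries. All samples are labelled with the db/db genotype on a KsJ background, and such mice, which lack the signalling form of the leptin receptor, become obese and develop diabetes. The 6 libraries labelled model, with no agent named, were compared with 6 libraries labelled with the agent Keluoxin, a Chinese herbal preparation. The sources used here do not give dose, duration or age, and no mice without the mutation were analysed here. The labels name the retina as the tissue, whereas an exosome pellet is named in the extraction protocol. Since they do not tie each sample to an animal of its own, the p-values refer to the spread among these libraries, part of which can be technical.

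miRNAs are short RNAs that guide Argonaute proteins to messenger RNAs through their seed, bases 2 to 8. Most are cut from a hairpin by Drosha and then by Dicer, which leaves a 5p and a 3p arm. miR-451a is the known exception: its hairpin is too short for Dicer, so Argonaute 2 cuts it in the 3p strand, and the long product is then trimmed from its 3' end by the nuclease PARN. miR-144 and miR-451a come from one primary transcript that the factor GATA1 switches on as red cells mature, and miR-144 is processed by Dicer. miR-486 lies in the gene of ankyrin 1, a protein of the red cell skeleton, and is also made in muscle. All are abundant in red cells.

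The mature sequences show how the members differ, with the seed in capitals. Those of the shared locus were taken from RefSeq (GRCm38.p6), which held 3 of the arms described here, and no pair of these shares a seed.
miR-451a: aAACCGUUaccauuacugaguu
miR-144-5p: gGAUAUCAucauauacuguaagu
miR-144-3p: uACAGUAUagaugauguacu
The most frequent deposited reads of the miR-486 arms are given as DNA letters, again with the seed in capitals.
miR-486-5p: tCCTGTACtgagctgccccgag
miR-486-3p: cGGGGCAGctcagtacaggat
The hairpin of mir-451a (72 nt, RefSeq) is printed with the stretch that its reads covered, bases 17 to 42, in capitals, since the read ends below are counted along it.
mir-451a hairpin: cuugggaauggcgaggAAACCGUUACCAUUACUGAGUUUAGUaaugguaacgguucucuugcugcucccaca

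In the GENCODE M21 annotation of GRCm38, mir-144 lies on the plus strand at chr11:78073005-78073070 and mir-451a at chr11:78073170-78073241, with 99 bp between them. Neither overlaps another gene on its strand, and the nearest protein-coding gene is Eral1, 135 bp from mir-451a. On the minus strand, mir-451b covers the same span as mir-451a, and 58 of the 7897 mir-451a reads were also assigned to it. mir-486a lies at chr8:23142555-23142682 on the plus strand, in an intron of Ank1. mir-486b lies at chr8:23142573-23142662 on the minus strand and is the reverse complement of bases 19 to 108 of the 128-nt mir-486a. The pair therefore give nearly the same mature sequences, and 91.6% of the 5568 miR-486-5p reads matched both. They were counted here once, as miR-486-5p and miR-486-3p.

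miR-451a-5p was higher in the Keluoxin libraries on average, but the rise was carried by 4 of the 6. Levels are given as normalized CPM, read counts scaled to library size (CPM) after TMM scaling. In the model libraries miR-451a-5p lay between 21.1 and 44.0 normalized CPM (median 29.7), and the counts behind these values were 143 to 175 reads. In the Keluoxin libraries it stood at 24.8 in replicate 1 and 35.1 in replicate 2, at 325 in replicate 3, 353 in replicate 4 and 660 in replicate 5, and at 148 in replicate 6. Replicates 1 and 2 thus lay within the model range, while the other 4 were above every model library. The means were 31.1 ± 8.45 in model and 258 ± 241 in Keluoxin (n = 6 each, SD), an 8.29-fold difference (log2 fold change 3.05, SE 0.69, edgeR quasi-likelihood test, adjusted p = 0.0138). Over all 762 arms tested, 16.3% passed the same threshold of 0.05, 8.14% higher and 8.14% lower in Keluoxin. Of the 506 annotated arms among them, 14.0% passed and 4.15% were higher. The call held when any 1 library was left out, with log2 fold changes between 2.52 and 3.29 (adjusted p between 0.00686 and 0.0362). It held in 22 of the 23 alternatives tried and was lost in 1, a fit with the replicate number as a term (edgeR adjusted p = 0.0907).

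**Figure D1:**
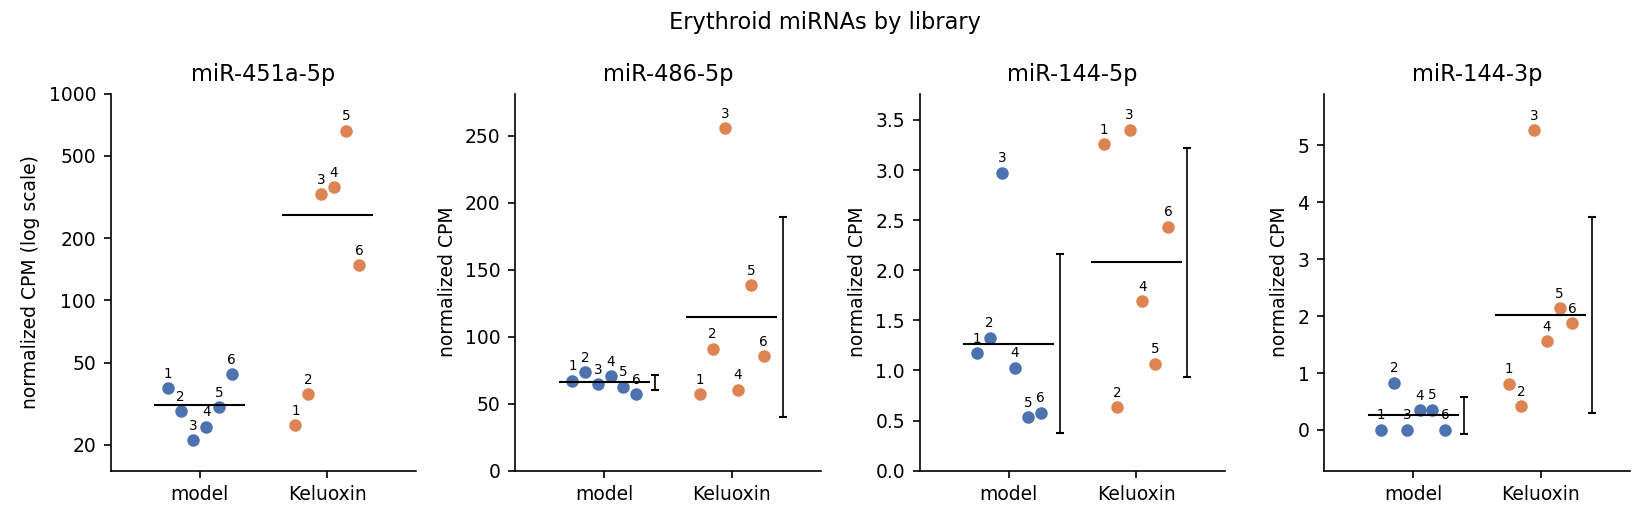
Normalized CPM (read counts scaled to library size with TMM) of 4 arms in each library, numbered by replicate, with a log axis for miR-451a-5p and linear axes for the others. Horizontal lines are means, and vertical bars on the linear axes are SD (n = 6 per group). miR-451a-5p lay between 148 and 660 in Keluoxin replicates 3 to 6 and between 21.1 and 44.0 in the other 8 libraries.

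miR-486-5p, the most abundant member in the model libraries, was not called. It lay between 57.0 and 73.5 normalized CPM in model (median 65.9), a narrow range. In Keluoxin it ran from 57.2 in replicate 1 to 256 in replicate 3 (median 88.3), with 91.2, 60.5, 139 and 85.4 in replicates 2, 4, 5 and 6. Keluoxin replicates 1 and 4 lay in the model range and the other 4 above it. The means were 65.9 ± 5.82 and 115 ± 75.0 (n = 6 each, SD), with a log2 fold change of 0.80 (SE 0.33) that did not pass (edgeR adjusted p = 0.113). Without Keluoxin replicate 3 the log2 fold change was 0.33 (adjusted p = 0.275).

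Keluoxin replicates 3, 5 and 6 were above the model range in both miR-451a-5p and miR-486-5p, and replicates 2 and 4 in 1 of them. miR-451a-5p was highest in Keluoxin replicate 5 and miR-486-5p in Keluoxin replicate 3, and Keluoxin replicate 4 was high in the first and within the model range in the second. The log2 ratio of miR-451a to miR-486 reads within a library does not depend on how libraries are scaled. It lay between -1.66 and -0.40 in model (median -1.22), so every model library held fewer miR-451a than miR-486 reads. In Keluoxin it was -1.23 in replicate 1 and -1.40 in replicate 2, 0.33 in replicate 3, 2.52 in replicate 4, 2.23 in replicate 5 and 0.78 in replicate 6. The same 4 libraries lay above the model range as for the level of miR-451a. The means were -1.16 ± 0.47 and 0.54 ± 1.66 (n = 6 each, SD), and the difference of 1.69 did not pass after adjustment (exact two-sided permutation test, p = 0.0411, adjusted over 6 measures p = 0.0823).

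**Figure D2:**
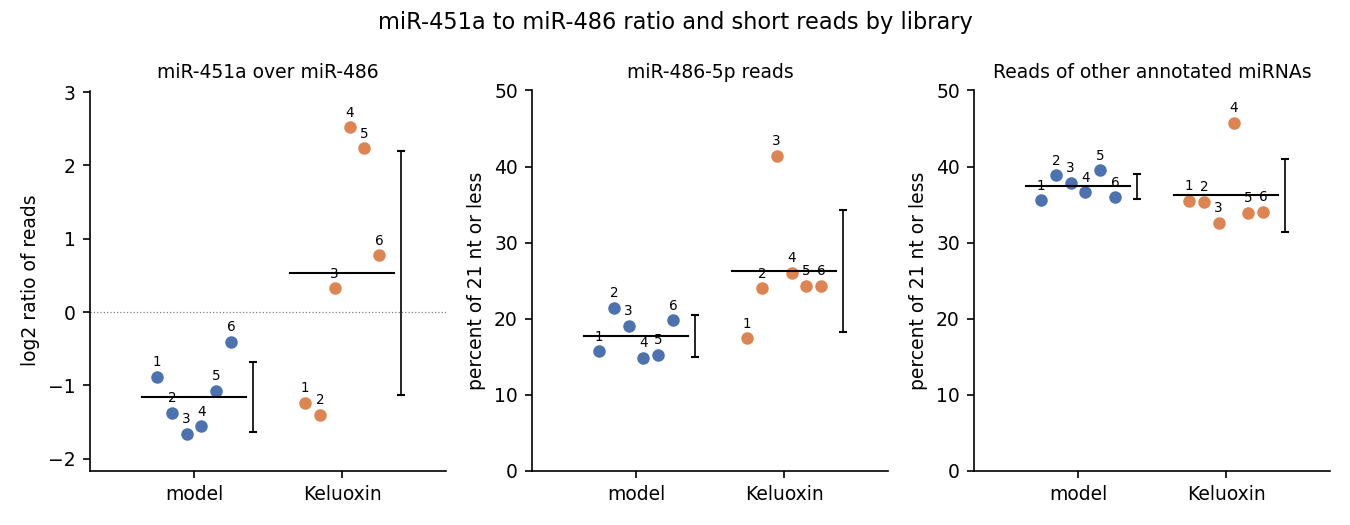
Left, log2 ratio of miR-451a to miR-486 reads in each library; middle and right, percent of reads of 21 nt or less among miR-486-5p reads and among reads of all other annotated miRNAs. Points are libraries numbered by replicate, lines are means and bars SD (n = 6 per group). The ratio was above 0 in Keluoxin replicates 3 to 6 alone, and 41.4% of miR-486-5p reads were 21 nt or shorter in Keluoxin replicate 3.

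The miR-144 arms were scarce, with 113 reads for the 5p arm and 72 for the 3p arm over all libraries, and both failed the filter on low counts and were not tested. miR-144-3p, the arm usually taken as the functional one, was listed at 0, 5, 0, 2, 2 and 0 reads in model replicates 1 to 6. In Keluoxin it had 4, 2, 31, 12, 4 and 10 reads, so all 6 libraries held it, against 3 of the model libraries. In normalized CPM this was 0.254 ± 0.329 in model and 2.01 ± 1.72 in Keluoxin (n = 6 each, SD), a ratio of means of 7.91. On the log2 scale this ratio was 2.98, and it was 3.84 without model replicate 2 and 2.37 without Keluoxin replicate 3. DESeq2, whose filter kept this arm, called it (adjusted p = 0.0131), and edgeR without its filter did not (adjusted p = 0.0922). Sequences read only once are not in the tables, so a library listed at 0 may hold single reads. The 3p arm was above the model range in the same 4 Keluoxin libraries as miR-451a, replicates 3 to 6. That match rests on few reads. Keluoxin replicate 1, with 4 reads, stood at 0.814 normalized CPM, just under the model maximum of 0.829. Keluoxin replicate 5, the shallowest library, also had 4 reads and stood at 2.14.

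miR-144-5p ran from 0.532 to 2.97 normalized CPM in model (median 1.10) and from 0.631 to 3.401 in Keluoxin (median 2.06). The groups overlapped, with 2 Keluoxin libraries, replicates 1 and 3, above the model range, and the means were 1.27 ± 0.894 and 2.08 ± 1.14 (n = 6 each, SD). Keluoxin replicate 1, low in miR-451a, was among the highest in this arm at 3.26. The 3p arm held 17.2% ± 19.6 of miR-144 reads in model and 46.5% ± 16.5 in Keluoxin (n = 6 each, SD), which was not tested because some libraries had fewer than 10 reads of the miRNA. The most frequent reads of both arms, 43 of 113 on 5p and 41 of 72 on 3p, had the sequences of the RefSeq arms.

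Of the 225 reads assigned to mir-144, 40 (17.8%) lay in its loop, between the arms, and were set apart. They had 4 sequences, each with 1 base changed against mir-144, and 3 of the 4 shared a longer unbroken run with mir-5121. In these 3 the runs were 15, 16 and 16 bases in mir-5121, against 14, 14 and 15 in mir-144. The most frequent sequence, with 22 of the 40 reads, shared a run of 15 bases with each precursor. mir-5121 overlaps the small nucleolar RNA gene Snord33 within Rpl13a, at chr7:45126918-45126991 on the minus strand, and had 10247 reads. The 2 most frequent loop sequences are printed because they differ from mir-144 at 1 base, named from the read's 5' end, with the run shared with mir-5121 in capitals.
loop read 1 (T2C, 22 reads): GCTTGTGATGAGACAct
loop read 2 (T2C, 10 reads): GCTTGTGATGAGACAc
Counted with the 3p arm, these reads lowered the log2 ratio of mean miR-144-3p levels from 2.98 to 1.75.

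miR-486-3p, the other arm of miR-486, was also below the filter. It lay between 0.887 and 2.11 normalized CPM in model (median 1.603) and between 1.04 and 3.74 in Keluoxin (median 1.35), with 105 reads in all. Its highest value was in Keluoxin replicate 3, the library that was highest in the 5p arm. The 5p arm took 97.7% ± 0.654 of miR-486 reads in model and 98.4% ± 0.272 in Keluoxin (n = 6 each, SD), a difference that did not pass after adjustment (exact permutation test, p = 0.0411, adjusted p = 0.0823).

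By mean level over the 12 libraries, miR-451a-5p ranked 158 and miR-486-5p 191 of 1409 annotated arms, and the ranges of the pair overlapped. miR-486-3p, miR-144-5p and miR-144-3p ranked 525, 527 and 565, and their ranges overlapped. In the model group alone miR-486-5p was above miR-451a-5p in every library, while the 3 minor arms stayed under 3 normalized CPM.

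The reads of miR-451a had 1 main start and a range of ends. In the 6 model libraries 100% of the reads began at base 17 of the hairpin, and in Keluoxin 99.98% ± 0.0602 did (n = 6, SD; exact permutation test, adjusted p = 1). Keluoxin replicate 4 alone was below 100%, at 99.85%. Every assignment of the libraries then gives the same absolute difference, so this test could not decide. The most frequent read, of 21 nt, made up 4367 of 7897 reads (55.3%). The reads below are printed because they show the range of ends, with a base that differs from the hairpin in capitals and named by its position from the 5' end.
21 nt (4367 reads): aaaccgttaccattactgagt
21 nt, T21C (656 reads): aaaccgttaccattactgagC
22 nt (498 reads): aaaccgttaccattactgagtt
21 nt, T21A (318 reads): aaaccgttaccattactgagA
21 nt, T21G (214 reads): aaaccgttaccattactgagG
26 nt (158 reads): aaaccgttaccattactgagtttagt
The 22-nt read is the RefSeq mature sequence and held 6.31% of the reads. The 26-nt read, listed last, held 2% and was chosen after its value was seen because no miR-451a read was longer. Of the 7897 reads 0 had 27 nt or more, whereas reads of other annotated miRNAs reached 51 nt, with 36773 of 59315258 at 27 nt or more.

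The 4 Keluoxin libraries with high miR-451a had a smaller share of long miR-451a reads. Reads of 24 nt or more made up between 5.92% and 19.4% of miR-451a reads in model (median 8.87). In Keluoxin they made up 9.02% in replicate 1 and 8.98% in replicate 2, against 1.36%, 1.88%, 0.972% and 4.42% in replicates 3 to 6, all below the model range. The means were 10.5% ± 5.14 and 4.44% ± 3.73 (n = 6 each, SD), and this difference did not pass after adjustment (exact two-sided permutation test, p = 0.0368, adjusted p = 0.0823). Reads of other annotated miRNAs had closer means: 10.02% ± 0.704 in model and 9.26% ± 1.84 in Keluoxin had 24 nt or more. In Keluoxin replicate 4, however, the share in other annotated reads was 5.69%, the lowest of the 12 libraries and below the model minimum of 9.07%, while in replicates 3, 5 and 6 it was 10.6%, 10.5% and 10.1%, within the model range. The mean length of miR-451a reads was 21.65 ± 0.262 nt in model and 21.33 ± 0.360 nt in Keluoxin (n = 6 each, SD; exact permutation test, adjusted p = 0.156).

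**Figure D3:**
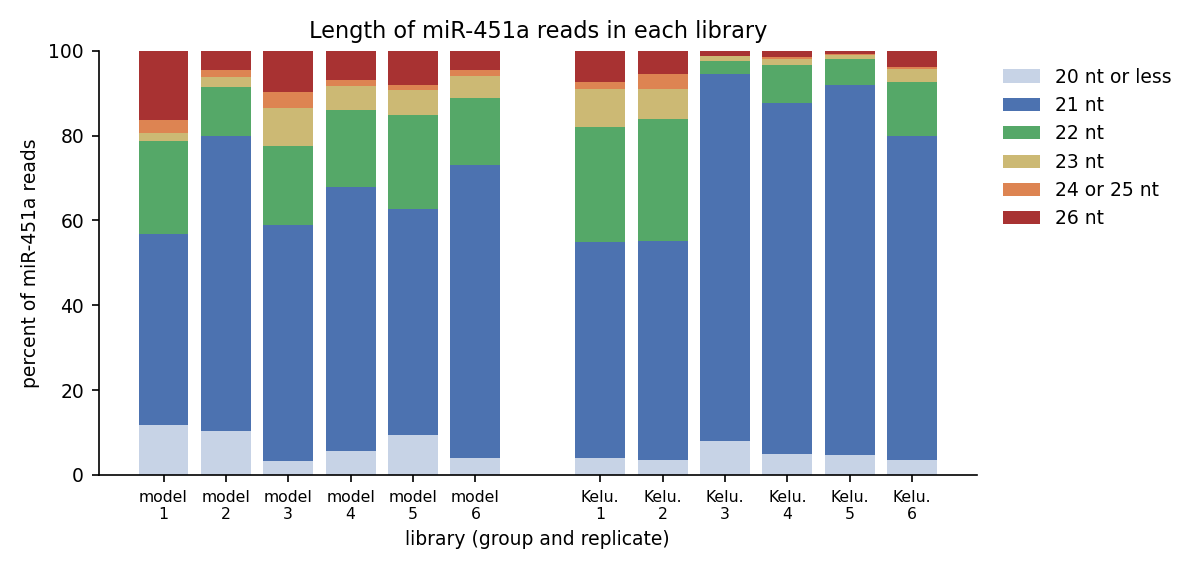
Percent of miR-451a reads in 6 length classes, 1 stacked bar per library (Kelu., Keluoxin), with replicates numbered within each group. The 21-nt class takes between 76.4% and 87.1% in Keluoxin replicates 3 to 6 and between 45% and 69.7% in the other 8 libraries.

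Split by length, the difference in miR-451a level was widest for the 21-nt reads. They stood at 18.5 ± 6.46 normalized CPM in model and 215 ± 214 in Keluoxin (n = 6 each, SD), 11.7-fold apart, and did not pass after adjustment (exact permutation test, p = 0.0433, adjusted over 6 classes p = 0.0866), with replicates 1 and 2 at 12.6 and 18.1 within the model range. The 22-nt reads rose from 5.60 ± 1.96 to 19.6 ± 13.7 (3.49-fold, exact permutation test, adjusted p = 0.026), and the 23-nt reads from 1.45 ± 0.668 to 4.11 ± 1.77 (2.83-fold, adjusted p = 0.026). For these classes 5 of the 6 Keluoxin libraries were above every model library. The 26-nt reads stood at 2.61 ± 1.75 and 4.07 ± 1.81 (1.56-fold, exact permutation test, adjusted p = 0.257), with no Keluoxin library above the highest model library, replicate 1 at 6.10. These classes were set after the data were seen. The call was lost for the 22-nt reads when any 1 of the 6 model libraries was left out, and for the 23-nt reads when any of model replicates 1 to 5 was (adjusted p up to 0.149 and 0.0779).

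**Figure D4:**
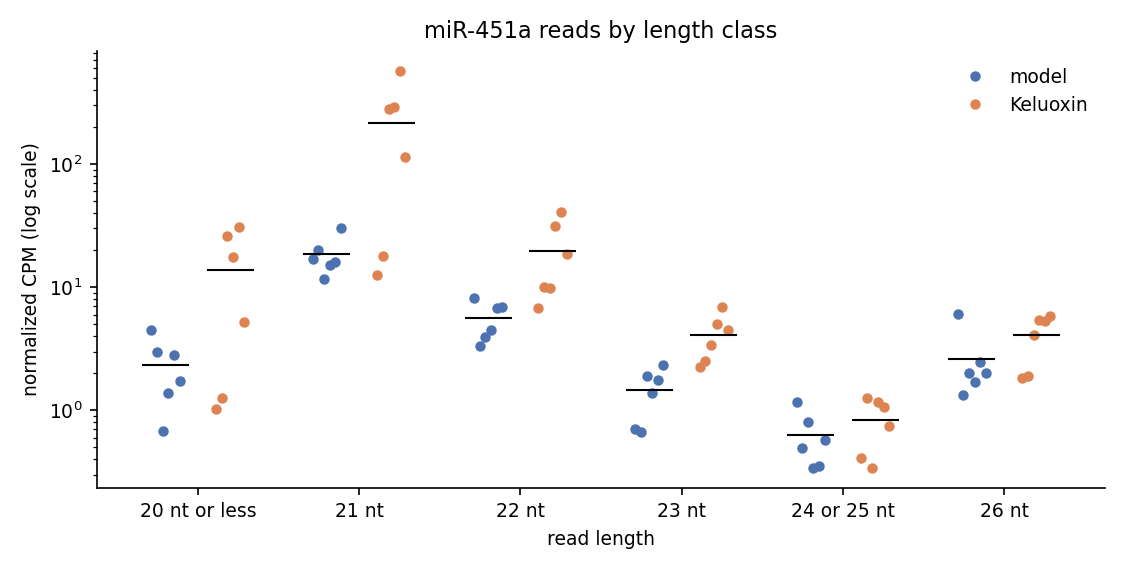
Normalized CPM (log axis) of miR-451a reads in 6 length classes, with 1 point per library and black lines at the group means. The mean 21-nt level is 11.7-fold and the mean 26-nt level 1.56-fold higher in Keluoxin, and 2 Keluoxin libraries lie within the model points at 21 nt.

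The last base of the 21-nt miR-451a reads varied, counted over reads with no change ahead of it. The templated T ended 75.5% ± 3.46 of them in model and 74.5% ± 8.65 in Keluoxin (n = 6 each, SD), and a C ended 12.6% ± 2.17 and 12.5% ± 5.64. A changed base in the last 3 positions was carried by 22.7% ± 3.54 of miR-451a reads in model and 24.8% ± 8.05 in Keluoxin (n = 6 each, SD; exact permutation test, adjusted p = 0.681). In other annotated reads that share was 33.1% ± 1.56 and 40.1% ± 3.37. Ahead of the last 3 positions, changed bases were in 0.791% ± 1.40 of miR-451a reads in model and in 6.77% ± 5.36 in Keluoxin, up to 15.0% in replicate 4. Since a variant enters the tables only with at least 2 reads, such shares can move with the number of miR-451a reads, 122 to 175 in the model libraries and Keluoxin replicates 1 and 2 and 792 to 2712 in the other 4. That part in the result was not tested.

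miR-486-5p reads were longer than those of miR-451a and more varied at their end, with a mean length of 22.19 ± 0.148 nt in the model libraries. Their lengths ran from 15 to 25 nt, and none of the leading reads held more than 21.9% of the 5568 reads. Reads are printed because the copies mir-486a and mir-486b differ at the base that follows the 22-nt read, and the frequent longer reads match neither copy there, with the unmatched base in capitals.
22 nt (1220 reads): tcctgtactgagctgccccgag
23 nt (1111 reads): tcctgtactgagctgccccgagT
23 nt (700 reads): tcctgtactgagctgccccgagA
21 nt (686 reads): tcctgtactgagctgccccga
Reads of 21 nt or less made up 14.8% to 21.4% of miR-486-5p reads in model (median 17.4) and 17.4% to 41.4% in Keluoxin (median 24.3). The highest share was in Keluoxin replicate 3, the library with the highest miR-486-5p level. In that library 32.6% of the reads of other annotated miRNAs were that short, the lowest share of the 12 libraries. A changed base in the last 3 positions was carried by 51.2% ± 2.51 of miR-486-5p reads in model and 49.2% ± 4.54 in Keluoxin (n = 6 each, SD), above the shares of miR-451a. These shares of miR-486-5p were not tested between the groups.

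Other miRNAs of red cells and of their maturation were given from a list of 21 precursors. Of their 25 arms tested, 2 were called higher and 1 lower in Keluoxin, with a median log2 fold change of -0.12 beside 0.01 over all arms tested. These 3 are 12% of the list, near the 16.3% called over all arms (8.14% in each direction), so the count says nothing particular about it. At an unadjusted p under 0.05 there were 9 of 25, beside 253 of 762 over all arms, and DESeq2 called 6 of 32, beside 195 of 1328. The most abundant were miR-191-5p, at 8950 ± 1334 normalized CPM in model and 7578 ± 762 in Keluoxin (n = 6 each, SD), miR-16-5p, at 1942 ± 492 and 1739 ± 143, and miR-24-3p, at 1586 ± 196 and 1306 ± 90.7. None of these passed, with edgeR adjusted p of 0.156, 0.449 and 0.0692. miR-16-2-3p rose from 2.70 ± 1.16 to 6.43 ± 2.71 (log2 fold change 1.26, SE 0.37, edgeR adjusted p = 0.0379), and miR-27a-3p from 649 ± 84.8 to 858 ± 87.5 (0.40, SE 0.11, adjusted p = 0.0263). miR-24-1-5p fell from 16.3 ± 3.45 to 10.7 ± 1.99 (-0.61, SE 0.19, adjusted p = 0.047). With 1 library left out in turn, the calls were lost in 8, 4 and 10 of 12 fits for miR-16-2-3p, miR-27a-3p and miR-24-1-5p. The first was lost without any of model replicates 3 to 6 or Keluoxin replicates 1, 3, 4 and 6, the second without any of model replicates 3 to 6, and the third was kept only without model replicate 1 or Keluoxin replicate 2. miR-16, miR-191 and miR-24 are also made in many other cell types.

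Markers of other blood and tissue cells are given beside these values, and their part in the miR-451a result was not tested. Of 6 leukocyte arms tested, 0 passed by edgeR (1 at an unadjusted p under 0.05, and 0 of 9 by DESeq2), with a median log2 fold change of 0.06. With 16.3% called over all arms, a count of 0 in so short a list says little. Their summed level ran from 542 to 606 normalized CPM in model and from 502 to 617 in Keluoxin, and the most abundant was miR-342-3p, at 417 ± 27.6 and 383 ± 27.2 (n = 6 each, SD), followed by miR-146a-5p and miR-150-5p. The myeloid marker miR-223-3p had at most 6 reads in a model and 13 in a Keluoxin library and was listed at 0 in 4 and 2 of the 6. miR-142a-3p, a marker of blood cell lineages, had at most 9 and 8 reads. Reads of these 2 markers were thus few in both groups. In normalized CPM, miR-142a-3p stood at 3.74 in Keluoxin replicate 5, and its other Keluoxin libraries lay within the model range, up to 1.49. miR-223-3p stood at 1.69 and 1.07 in Keluoxin replicates 4 and 5, and its other Keluoxin libraries lay within the model range, up to 0.995.

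The counts of called arms in the next lists stand beside the same 16.3% over all arms, and DESeq2 called 1 arm in each of the liver and plasma, endothelial and muscle lists. Of 3 liver and plasma arms (median log2 fold change -0.14), miR-192-5p and miR-194-5p did not pass and miR-122-5p, the main miRNA of hepatocytes and also found in plasma, rose. It stood at 2.53 ± 1.36 normalized CPM in model and at 15.4 ± 15.1 in Keluoxin (n = 6 each, SD), with a log2 fold change of 2.56 (SE 0.65, edgeR adjusted p = 0.0217, and 0.0543 without model replicate 4). It was highest in Keluoxin replicates 5 and 2, at 41.7 and 25.4. Replicates 1, 3 and 6, at 8.75, 7.31 and 7.11, were also above the model maximum of 4.97, and replicate 4, at 2.34, was within the model range. miR-451a-5p was likewise highest in Keluoxin replicate 5 and above its model range in replicates 3 and 6. It differed in replicates 1 and 2, within its model range, and in replicate 4, above it. Of 2 endothelial arms (median -0.18), miR-126a-3p fell from 1652 ± 177 to 1063 ± 134 (-0.64, SE 0.11, edgeR adjusted p = 0.0047). miR-126a-5p, from the same hairpin, went the other way, from 172 ± 36.8 to 208 ± 32.4, and did not pass (0.28, SE 0.15, edgeR adjusted p = 0.217). Of 4 muscle arms (median 1.06), miR-133b-3p rose from 1.64 ± 0.746 to 6.02 ± 6.18 (1.86, SE 0.58, edgeR adjusted p = 0.0453), while miR-1a-3p, miR-133a-3p and miR-206-3p did not pass. All 4 were highest in Keluoxin replicate 4. There miR-1a-3p stood at 1662 normalized CPM, where the other 5 libraries of the group had 248 to 383 and the model median was 331.5, miR-133a-3p at 157, against 16.0 to 27.9, and miR-133b-3p at 18.5, against 1.68 to 4.81. Without that library the log2 fold changes of miR-1a-3p, miR-133a-3p and miR-133b-3p went from 0.71, 1.41 and 1.86 to -0.05, 0.32 and 1.06, and none passed (edgeR adjusted p = 0.803, 0.237 and 0.1). The rise of miR-133b-3p was no longer called in 10 of 12 fits with 1 library left out, all but those without model replicate 1 or Keluoxin replicate 2. Muscle also makes miR-486, whose 5p arm in Keluoxin replicate 4 was within the model range, at 60.5. Without that library miR-451a-5p kept its call (log2 fold change 2.94, edgeR adjusted p = 0.0232).

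The libraries carried the miRNAs of a retina. Arms of mir-182, mir-183 and mir-96, a cluster known from photoreceptors, summed to between 184802 and 409268 normalized CPM in the 12 libraries. Of 6 such arms edgeR called 3, all lower, and DESeq2 also called 3, beside 8.14% called lower over all arms. miR-182-5p, miR-183-3p and miR-96-3p fell, with log2 fold changes of -0.61, -0.73 and -0.78 (edgeR adjusted p = 0.0209, 0.00609 and 0.0488). The last call was lost in 10 of 12 fits with 1 library left out, all but those without model replicate 1 or Keluoxin replicate 1. The median over the 6 arms was -0.46. miR-183-5p did not pass (-0.19, edgeR adjusted p = 0.445). Nor did miR-96-5p, which went the other way, from 42894 ± 3341 normalized CPM in model to 52209 ± 6182 in Keluoxin (0.28, edgeR adjusted p = 0.0583). The neuronal arms, miR-9-5p, miR-124-3p and miR-9-3p among them, and those of the pigment epithelium, led by miR-204-5p, miR-211-5p and miR-204-3p, had 0 of 4 called in each list by edgeR and by DESeq2 (1 and 0 at an unadjusted p under 0.05), with medians of -0.30 and 0.07. If the libraries hold whole-tissue RNA, fewer cells of a type and less RNA per cell cannot be told apart. The extraction protocol names an exosome pellet, so the RNA source is not settled, and the cells that gave the miR-451a reads were not measured. The libraries held between 1933375 reads (Keluoxin replicate 5) and 7892147 (model replicate 3). Model replicate 1 lay among the Keluoxin libraries on the first principal component of the tested arms (log2 of normalized CPM plus 0.5), with a score of 9.15 beside 4.21 to 17.9 in Keluoxin and -33 to -7.21 in the other model libraries. Its miR-451a-5p level, 37.6, was within the range of its group. Without model replicate 1 and Keluoxin replicate 4, the log2 fold change of miR-451a-5p was 3.01 (edgeR adjusted p = 0.0221).

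In the model group the miR-451a reads varied less than the depth. Depth differed 2.07-fold between the shallowest and the deepest model library, whereas the miR-451a reads of these 6 libraries differed 1.22-fold. In Keluoxin depth differed 3.14-fold and miR-451a reads 22.2-fold, and the shallowest Keluoxin library, replicate 5, had 1234 miR-451a reads.

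The annotated arms outside the members whose level was most like that of miR-451a-5p over the 12 libraries, among 504 compared, were miR-692-1-5p, miR-706-5p, miR-696-3p, miR-1195-3p and miR-3470b-5p. Their Spearman rho with it, over log2 normalized CPM, was 0.90, 0.84, 0.80, 0.79 and 0.78. These are descriptions over libraries that differ in depth and group, and the members themselves had lower values, 0.62 for miR-144-3p, 0.32 for miR-486-5p, 0.03 for miR-486-3p and 0.01 for miR-144-5p. Of the 5, miR-1195-3p was called higher, with 4.10 ± 5.22 normalized CPM in model and 24.8 ± 7.85 in Keluoxin (a change of 2.62 on the log2 scale, SE 0.64, edgeR adjusted p = 0.0188). miR-3470b-5p was the most abundant, at 73.4 ± 97.6 and 236 ± 67.5, and did not pass by edgeR (adjusted p = 0.12). miR-692-1-5p, miR-706-5p and miR-696-3p were scarce, with means of 1.53, 0.951 and 2.39 in model and 3.64, 4.46 and 7.85 in Keluoxin. Their lowest model values were 0.135, 0 and 0, and none of them passed (edgeR adjusted p = 0.148, 0.0548 and 0.246). All 5 had a higher mean in Keluoxin.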

How the data were processed

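Small RNA libraries of 6 model and 6 Keluoxin samples were built with the NEBNext small RNA kit (1 µg of total RNA each), size-selected for inserts of 15 to 35 nt and run on an Illumina NextSeq, per the labels' protocols. Novoalign, Bowtie, cutadapt and bcl2fastq were used, per the submitters' processing notes; the genome build and miRBase release: not given in the sources used here. The deposited counts are whole reads per distinct sequence and precursor, not normalized, for sequences with at least 2 reads and at most 1 base changed, inserted or deleted. A sequence that fits several precursors has its count divided among them by the authors, per the file headers and tag names. Other deposited columns (lengths, positions with 5 added) were used as read.

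Here the undivided reads were counted once per arm, the arm given by whether a read lies before or after the precursor's midpoint. Copies that share more than 50% of their reads became 1 arm, mir-486a and mir-486b were joined, and mir-144 loop reads were kept apart. Levels were tested with edgeR 4.0.16 in R 4.3.3 (TMM scaling, its filter on low counts, quasi-likelihood test, Benjamini-Hochberg adjustment at 0.05) on 762 arms, with a biological coefficient of variation of 0.467. Each SE given with these log2 fold changes was derived from the test, as the absolute log2 fold change divided by the square root of its F statistic. The fit was tested on simulated data of the same 762 arms, where it recovered 19.4% of 67 arms set to change 1.5-fold, 64.2% of 67 set to 2-fold and 86.4% of 66 set to 4-fold, and called 1 of 562 unchanged arms. The simulated counts took their dispersions from the fit, equal in both groups. An unequal spread like that of miR-451a-5p, wide in Keluoxin and narrow in model, was therefore not simulated. Shares and ratios were compared with a two-sided exact permutation test of the group means over all assignments of the 12 libraries (smallest possible p 0.00216), adjusted over the 6 measures tested; a measure was tested where each library had at least 10 reads. The libraries carry no stated molecular identifiers, so reads are not counts of molecules. Python 3.11.15, pandas 2.3.3, NumPy 2.4.6, SciPy 1.17.1 and Matplotlib 3.10.9 were used, and DESeq2 1.42.0 as an alternative.

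No library was a copy of another of its group: over 30 pairs the smallest chi-square per degree of freedom was 74.8. The members and lists were chosen with earlier results of these data known. The text names all arms of the members, the 5 annotated arms most like miR-451a-5p, the 3 most abundant tested arms and every called arm of each list, the 5 most frequent miR-451a reads and the most frequent read of each other arm; additional miR-486 reads, loop reads and the 26-nt read were chosen after their values were seen. Alternatives were other scalings, no filter, DESeq2, annotated precursors only, exact reads only, reads of 18 to 26 nt, the divided counts, a replicate block and each library left out. Not planned were the fit without model replicate 1 and Keluoxin replicate 4 and the count of loop reads with miR-144-3p. That fit is 1 of the 23 alternatives given for miR-451a-5p and for miR-486-5p.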

Additional observations from a re-analysis of the deposited data

Results flagged for a closer look

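Of 22 groups of 6 libraries checked for 1 library far from the others (Dixon's test), 3 had one. Chance gives about 1 in 20 where values are normally distributed, which arms with few reads need not be. miR-144-5p was highest in model replicate 3, at 2.97 normalized CPM, where the other model libraries lay at or below 1.33. miR-144-3p was highest in Keluoxin replicate 3, at 5.27 normalized CPM, against at most 2.14 in the other Keluoxin libraries. The share of miR-451a reads at the main start was lowest in Keluoxin replicate 4, at 99.85%, and 100% in the other 5. With the other 5 values equal, a departure of any size is flagged, so this flag carries no weight.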

How the results depend on the processing

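The miR-451a-5p level kept its direction and its call in 22 of 23 alternatives. Its log2 fold change was 2.86 with upper quartile scaling and 3.23 with total reads, which moved the median over all arms from 0.01 to -0.18 and 0.20. With the replicate number as a block the log2 fold change was 2.36 (edgeR adjusted p = 0.0907). No label says what a shared number marks. The deviations of same-numbered libraries correlated at 0.0374 to 0.259, above 0.1 in 4 of 6 pairs, and 1 of 6 model libraries correlated best with its own number. This did not meet the criterion for a pairing, which was above 0.1 in every pair, and does not show that there is none. The block gave 114 calls over all arms against 124. miR-486-5p was called in none of 23 alternatives (adjusted p between 0.056 and 0.275). The log2 ratio of mean miR-144-3p levels was 2.98; with DESeq2, which tested it, the value was 2.92 (adjusted p = 0.0131), with loop reads counted in it 1.75, and with 1 library left out 2.37 to 3.84, the highest without model replicate 2; without a filter, edgeR did not call it (adjusted p = 0.0922). The number of arms called was 195 with DESeq2 (1328 tested), 79 with annotated precursors only (503 tested), 80 with exact reads only (577 tested), 68 to 213 with 1 library left out (without model replicates 4 and 1), and 184 without model replicate 1 and Keluoxin replicate 4. Calls split 62 higher and 62 lower with the main scaling, 71 and 23 with total reads and 55 and 86 with the upper quartile. The share of miR-451a reads with a changed base in the last 3 was 2.14 percentage points higher in Keluoxin, and -0.088 without Keluoxin replicate 2 (range -0.088 to 4.02 with 1 library left out). The cause was not tested in these cases, except that fewer arms entered the annotated and exact-read fits. The 21-nt miR-451a reads passed without Keluoxin replicate 1 or 2 (adjusted p = 0.013 and 0.026), and those of 20 nt or less also did (0.026 each). Low counts limit the precision of the minor arms: miR-144-3p had at most 5 reads in a model library.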
